A study of Homo sapiens with 6 samples.

Results

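The genes described here are those that the RefSeq gene table of the human assembly GRCh38 places on chromosome 18. They were read through 271 probe sets of an Affymetrix HuGene ST array, out of 28869 probe sets on the array and 21062 that name at least 1 gene. A probe set was a member when it named exactly 1 gene and that gene lay on chromosome 18. PMAIP1 and symbols starting with MIR or SNOR were left aside, which removed 6 of 277 probe sets. The members stood for 258 of the 18377 genes read by such single-gene probe sets, with 68 probe sets on the short arm and 203 on the long arm. Of the probe sets, 250 read protein-coding genes, 15 long non-coding RNAs, 4 transcribed pseudogenes and 2 the small Cajal body RNA SCARNA17. The chromosome was chosen from results of these same arrays, in which most of its called genes were lower in the contrast given below. The direction and size of that contrast on this chromosome are therefore a description of the selected genes, and no test is attached to them.

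The arrays measured total RNA of 2 lines made from HEK293, a human embryonic kidney cell line, with 3 arrays per line from separate cultures. HEK-BAHD1 carried 1 integrated copy of the BAHD1 cDNA driven by the cytomegalovirus promoter, which is active in most cell types. HEK-CT, its isogenic control, carried, per the labels, a β-galactosidase sequence placed out of frame, while the methods of the study name an empty vector. Both lines grew in hygromycin and were pools of stable transfectants, so the 3 arrays of a line are cultures of 1 pool and their spread is the spread between such cultures. The study took RNA of HEK-CT and of 1 HEK-BAHD1 replicate at the same passage, and of another HEK-BAHD1 replicate at a later one. Passage was thus not balanced between the lines, and its effect was not tested. BAHD1 is a heterochromatin protein that takes part in gene silencing. Its own signal went against the labels, with log2 values of 10.06, 9.81 and 9.93 on the arrays labelled HEK-CT and 6.75, 7.00 and 6.76 on the arrays labelled HEK-BAHD1. The groups did not overlap, and the difference was -3.10 (SE 0.093). Every signed value below is the arrays labelled HEK-BAHD1 minus the arrays labelled HEK-CT, as deposited. In this contrast the BAHD1 signal opposes the direction that the study gives for it. If the labels were exchanged, every sign would turn. The study also assayed the RNA and protein of BAHD1 by other methods, which were not analysed here. The neurofilament genes NEFL and INA, which HEK293 cells express, had mean signals of 9.93 and 9.79, whereas the kidney lineage factor PAX2 was at 5.74 and NEFM at 4.87. Of markers of other cell types, PTPRC of leukocytes was at 3.13, ALB of hepatocytes at 3.24 and CDH5 of endothelium at 4.55. The fibroblast markers COL3A1 and COL1A1 were at 5.88 and 6.61, above PAX2 and NEFM.

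Human chromosome 18 is one of the gene-poor autosomes. It holds several gene families in clusters, such as the desmosomal cadherins, which join epithelial cells, and the clade B serpins, which inhibit proteases. It also holds genes of cell division, of chromatin and of signalling by transforming growth factor beta, among them SMAD2, SMAD4 and SMAD7. The arrays measured RNA only. Copies of the chromosome were not analysed here, so a difference in RNA per copy and a difference in the number of copies per cell cannot be told apart.

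The RNA of chromosome 18 genes was lower on the arrays labelled HEK-BAHD1 along both arms, and the difference was seen in the genes with a clear signal. A probe set was taken as brighter when its mean log2 signal over the 6 arrays reached 6.44, the median of all tested probe sets, and otherwise as dimmer. For the 143 brighter members, each array's median deviation from the 6-array mean of the probe set was 0.067, 0.117 and 0.097 on the arrays labelled HEK-CT. It was -0.095, -0.063 and -0.133 on the arrays labelled HEK-BAHD1. All 3 arrays of one label stood above all 3 of the other. The median difference of the brighter members was -0.193 on the log2 scale, a ratio of 0.875, with quartiles of -0.300 and -0.092. Of these members, 122 (85.3%) had a lower mean on the arrays labelled HEK-BAHD1, beside 54.2% of all brighter tested probe sets. The 128 dimmer members had a median difference of -0.013, with quartiles of -0.111 and 0.088. Over all 271 members the median was -0.103, and 194 (71.6%) had a lower mean. The median of all tested probe sets was 0.003, and 48.7% of them had a lower mean.

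**Figure D1:**
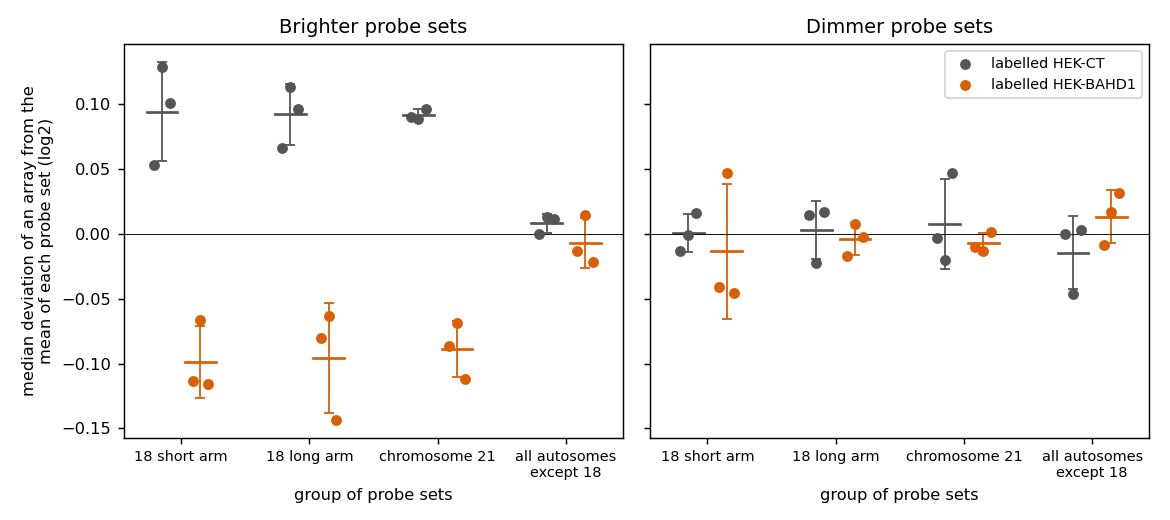
Median deviation of each array (log2) from the 6-array mean of each probe set, for brighter probe sets on the left and dimmer ones on the right. Each point is 1 array, grey for the label HEK-CT and orange for HEK-BAHD1, and lines and bars give mean and SD over 3 arrays. On both arms of chromosome 18 the brighter probe sets separate by label, with every grey point at 0.053 or above and every orange point at -0.063 or below.

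Both arms gave nearly the same value. On the short arm, the 40 brighter members had a median difference of -0.200, and their array medians were 0.053, 0.129 and 0.101 for the label HEK-CT against -0.113, -0.067 and -0.116 for HEK-BAHD1. On the long arm, the 103 brighter members had a median of -0.193, with array medians of 0.067, 0.113 and 0.097 against -0.080, -0.063 and -0.143. The arrays of the 2 labels did not overlap on either arm. Dimmer members were near 0 on both, with medians of -0.015 on the short arm and -0.012 on the long arm.

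A probe set was called when limma's Benjamini-Hochberg adjusted p over the 21062 tested probe sets was below 0.05 and the group medians differed by more than 0.2. In this sense 65 members (24.0%) were called lower, 12 (4.43%) higher and 194 in neither direction. Over all tested probe sets 6.39% were called lower and 6.79% higher. Among brighter members 58 were called lower and 7 higher, where the share among all brighter probe sets was 10.1% lower and 9.04% higher. Among dimmer members 7 were lower and 5 higher, beside shares of 2.66% and 4.54%. The 6 arrays did not overlap between labels in 108 members that were lower and in 27 that were higher, beside shares of 16.9% and 16.7% over all tested probe sets. These counts restate the contrast by which the chromosome was chosen. The called lower members had differences from -0.72 to -0.22, with a median of -0.34 and a median SE of 0.066. The called higher ones ranged from 0.23 to 0.87, with a median of 0.40.

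The counts of calls fell when 1 array was left out, among the members and over all tested probe sets. The 65 lower calls became 39, 28 and 27 without the arrays HEK-CT 1, 2 and 3, and 28 and 29 without HEK-BAHD1 1 and 3, each a change of more than 1.5 times. Without HEK-BAHD1 2 the count was 47. Over all tested probe sets the 1345 lower calls became 801, 842 and 581 without HEK-CT 1, 2 and 3. They became 646, 937 and 647 without HEK-BAHD1 1, 2 and 3. The higher count was 7 without HEK-CT 2 and 7 without HEK-BAHD1 2, and 8 to 10 otherwise. Over all tested probe sets the 1430 higher calls became 806 to 938. Under all 6 omissions 22 of the lower and 7 of the higher calls were kept, and no called member changed its sign under any of them. The 22 were ABHD3, C18orf54, CEP76, CEP192, CHMP1B, DSC3, ELAC1, ESCO1, HAUS1, MAPRE2, MEX3C, NDC80, NEDD4L, RIOK3, RMP24, SETBP1, SS18, TAF4B, THOC1, TIMM21, TRAPPC8 and ZNF271P. Every other lower call named below was lost under at least 1 omission. The median difference over the members stayed between -0.112 and -0.097.

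The difference was near 0 in dim members and alike in the 2 brighter classes of signal. For this the tested probe sets were divided into 4 classes of about equal size by mean signal. The 73 members of the dimmest class had a median difference of -0.017 and the 55 of the next class -0.003. The 57 members of the following class were at -0.190 and the 86 of the brightest at -0.195. For all tested probe sets in the same classes, the medians were 0.007, 0.040, 0.007 and -0.037. When the brighter members were split into 3 groups by genomic span, the medians were -0.227 for the shortest 48, -0.173 for the middle 47 and -0.183 for the longest 48.

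**Figure D2:**
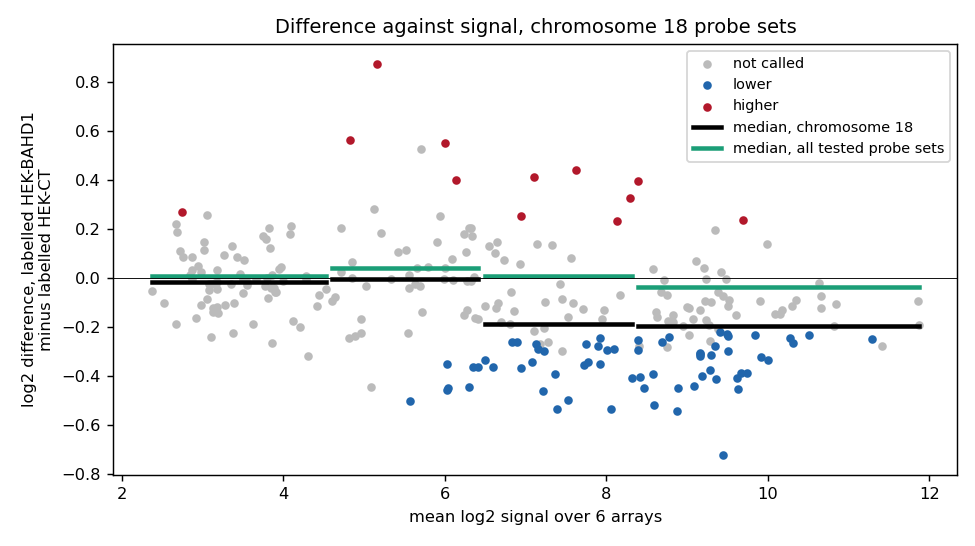
Log2 difference between the labels against the mean log2 signal over 6 arrays for the 271 members. Points are probe sets, blue where called lower, red where called higher and grey otherwise, black lines are medians of the members in 4 signal classes, and green lines those of all tested probe sets. In the 2 brighter classes the black lines lie at -0.190 and -0.195, below the green ones.

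Lower values were found along both arms, though not evenly. The members were taken in gene order, and 10 neighbours at a time formed a bin, with 8 in the last bin of the short arm and 13 in the last bin of the long arm. Of 27 bins, 24 had a median difference below 0 and 3 above, and the range was -0.317 to 0.133. From BCL2 to the end of the long arm, bin medians were near 0, between -0.035 and 0.017. The brighter members of these bins had medians between -0.280 and -0.093. At least 1 member was called lower in 26 bins. The exception ran from SERPINB10 to CD226, where 1 of 10 members was brighter. In 17 bins, 4 on the short arm and 13 on the long arm, the 3 array medians of the label HEK-BAHD1 all lay below those of HEK-CT, and in no bin did they all lie above. Bins were not formed on other chromosomes, so these counts of bins have no share from elsewhere beside them.

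The lowest bin, at -0.317, ran from MAPRE2 to RPRD1A on the long arm. It held 7 lower calls, namely MAPRE2, ZNF397, ZNF271P, ZNF24, INO80C, RMP24 and RPRD1A. The next bin, at -0.268, ran from LINC00470 to MYL12B near the tip of the short arm and held NDC80, both probe sets of SMCHD1, EMILIN2, LPIN2 and MYL12A. A bin at -0.262 from MYO5B to SMAD4 held the lower calls CFAP53, MBD1, CXXC1, ELAC1 and SMAD4 beside the higher call MYO5B. The longest unbroken run of members with a lower mean was 22, from TRAPPC8 to ELP2, of which 9 were called. A run of 11 followed farther along, from MRO to DYNAP. Runs on other chromosomes were not counted.

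The bin with the highest median, 0.133, ran from NAPG to ANKRD62 on the short arm. It held the higher calls GNAL and IMPA2, the lower calls NAPG and CHMP1B, and the 3 probe sets of PIEZO2, a mechanically gated channel, which were not called at 0.20, 0.18 and 0.53. Only 4 members of this bin were brighter, with a median of 0.008. Bins from BCL2 to SERPINB7 and from CNDP1 to ZNF236 had medians of 0.003 and 0.017, which turned to -0.033 and -0.020 when arrays were centred on their medians. Within the latter, the 5 brighter members had a median of -0.263.

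**Figure D3:**
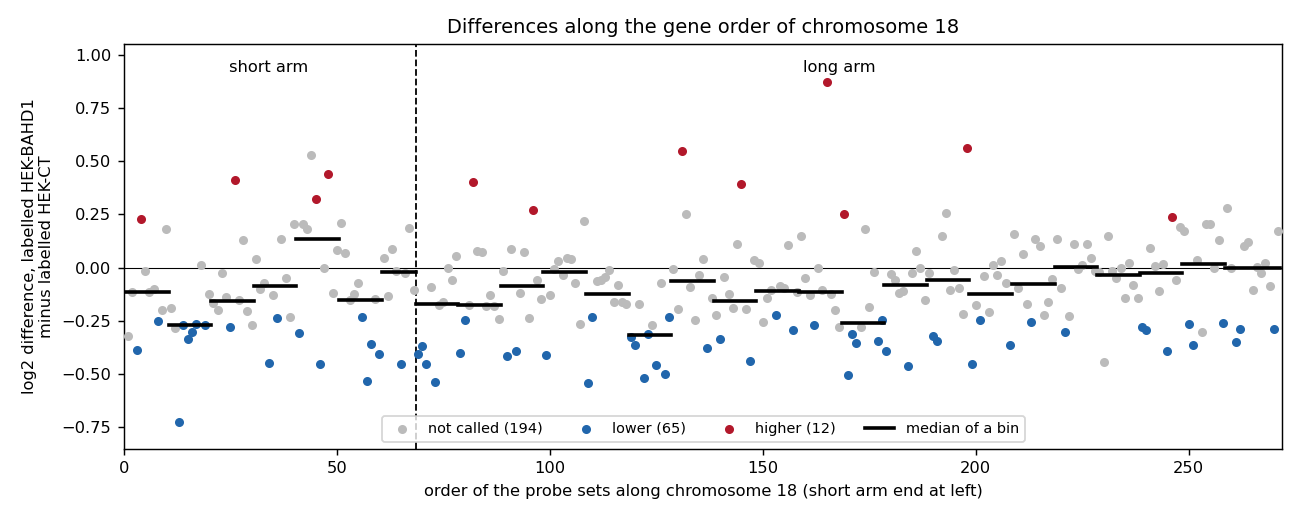
Log2 difference between the labels for each of the 271 members in gene order along chromosome 18, with the short arm left of the dashed line. Points are probe sets, blue where called lower (65), red where called higher (12) and grey otherwise (194), and black bars are medians of bins of about 10 neighbours. Of the 27 bars, 24 lie below 0 and they occur on both arms.

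NDC80 had the largest lower difference. It encodes a subunit of the outer kinetochore complex that binds spindle microtubules. Its log2 signals were 9.66, 9.89 and 9.87 on the arrays labelled HEK-CT and 9.08, 9.15 and 9.02 on those labelled HEK-BAHD1, a difference of -0.72 (SE 0.077) and a ratio of 0.606. TRAPPC8, a subunit of a tethering complex for transport vesicles, was at 9.14, 9.18 and 9.12 against 8.69, 8.63 and 8.49, a difference of -0.54 (SE 0.066). ABHD3, a phospholipase of the abhydrolase family, was at 8.25, 8.44 and 8.27 against 7.95, 7.71 and 7.69, also -0.54 (SE 0.089). In each of these genes the highest array of one label was below the lowest array of the other.

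CEP76, a centriolar protein, was at 7.64, 7.74 and 7.60 against 7.08, 7.25 and 7.05, a difference of -0.53 (SE 0.073). ZNF271P, a transcribed zinc finger pseudogene, was at 8.79, 8.95 and 8.82 against 8.32, 8.32 and 8.36, a difference of -0.52 (SE 0.061). CFAP53, a protein of cilia and flagella, was at 5.78, 5.83 and 5.86 against 5.02, 5.47 and 5.47, a difference of -0.50 (SE 0.12). Of its arrays labelled HEK-BAHD1, 1 stood well below the other two. RMP24, a subunit of ribonuclease MRP, was at 7.83, 7.83 and 7.68 against 7.24, 7.32 and 7.28, also -0.50 (SE 0.063). C18orf54 was at 7.45, 7.46 and 7.43 against 7.03, 7.10 and 6.83, a difference of -0.46. INO80C, a subunit of the INO80 chromatin remodeller, was at 6.13, 6.39 and 6.24 against 5.68, 5.97 and 5.74, a difference of -0.46. The 4 genes CHMP1B, ZNF519, NEDD4L and ESCO1 followed at -0.45 each. Of these 13 genes, CFAP53, INO80C and ZNF519 kept their call under only 2 of the 6 omissions of an array, and the other 10 kept it under all 6.

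The promoters of NDC80 and ABHD3 are shown as the regions at which the RNA of strongly lower members starts. They are taken from RefSeq on GRCh38.p14, 250 bases before to 50 bases after the start, on the strand of the gene, with CG dinucleotides in capitals. That of NDC80 lies at chr18:2571307-2571606 on the plus strand and holds 30 CG, and that of ABHD3 lies at chr18:21704725-21705024 on the minus strand and holds 34.
NDC80: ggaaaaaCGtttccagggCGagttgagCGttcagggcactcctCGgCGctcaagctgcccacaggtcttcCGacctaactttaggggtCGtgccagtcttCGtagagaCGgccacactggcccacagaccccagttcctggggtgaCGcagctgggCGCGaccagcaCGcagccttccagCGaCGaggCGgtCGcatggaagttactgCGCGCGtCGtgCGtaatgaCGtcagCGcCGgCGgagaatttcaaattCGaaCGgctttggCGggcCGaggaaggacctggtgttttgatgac
ABHD3: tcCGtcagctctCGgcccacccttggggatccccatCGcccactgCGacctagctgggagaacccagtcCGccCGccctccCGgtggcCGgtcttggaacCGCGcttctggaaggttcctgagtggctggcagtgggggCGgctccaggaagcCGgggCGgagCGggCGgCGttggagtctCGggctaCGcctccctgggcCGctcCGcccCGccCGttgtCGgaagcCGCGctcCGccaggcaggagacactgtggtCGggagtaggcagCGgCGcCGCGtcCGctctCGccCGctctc

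LIPG had the largest higher difference. It encodes the endothelial lipase and was at 4.60, 4.58 and 5.0 on the arrays labelled HEK-CT and 5.79, 5.41 and 5.60 on those labelled HEK-BAHD1, a difference of 0.87 (SE 0.14) and a ratio of 1.83. ATP8B1, a phospholipid flippase, was at 4.54, 4.65 and 4.46 against 4.98, 5.22 and 5.13, a difference of 0.56 (SE 0.081). MOCOS, which sulfurates the molybdenum cofactor, was at 5.69, 5.78 and 5.70 against 6.25, 6.28 and 6.29, a difference of 0.55 (SE 0.053). These 3 genes had no overlap between the labels and were all dimmer members.

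IMPA2, an inositol monophosphatase, was at 7.35, 7.49 and 7.38 against 7.73, 7.95 and 7.86, a difference of 0.44 (SE 0.074). L3MBTL4, a protein with MBT repeats that bind methylated lysines, was at 6.93, 6.86 and 6.91 against 7.34, 7.31 and 7.28, a difference of 0.41 (SE 0.052). ANKRD29 was at 6.09, 5.99 and 5.75 against 6.19, 6.45 and 6.39, a difference of 0.40 (SE 0.10). Its groups came close to each other, and its call was kept under 2 of the 6 omissions. PSTPIP2, an F-BAR protein of the cortical actin, was at 8.19, 8.26 and 8.15 against 8.56, 8.63 and 8.59, a difference of 0.39. GNAL, a stimulatory G protein subunit known from olfactory neurons, was at 8.18, 8.05 and 8.15 against 8.47, 8.42 and 8.46, a difference of 0.32. AQP4-AS1, MYO5B, CYB5A and COLEC12 made up the rest, at 0.27, 0.25, 0.24 and 0.23. AQP4-AS1 and ATP8B1, with mean signals of 2.75 and 4.83, were among the dimmest 30% of probe sets, and 10 of the 12 higher calls remained when these were left out of the test. These last 4 calls were kept under at most 1 omission, whereas the other 7 besides ANKRD29 were kept under all 6.

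The promoters of LIPG and MOCOS are shown as those of higher members. That of LIPG lies at chr18:49561807-49562106 on the plus strand with 23 CG, and that of MOCOS at chr18:36187247-36187546 on the plus strand with 26, with CG again in capitals.
LIPG: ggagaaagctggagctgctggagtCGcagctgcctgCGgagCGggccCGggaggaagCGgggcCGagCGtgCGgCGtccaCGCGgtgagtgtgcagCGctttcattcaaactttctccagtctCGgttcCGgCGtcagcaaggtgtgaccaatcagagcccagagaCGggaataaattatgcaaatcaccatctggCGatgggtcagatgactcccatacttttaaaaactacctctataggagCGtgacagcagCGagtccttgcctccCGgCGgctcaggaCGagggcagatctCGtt
MOCOS: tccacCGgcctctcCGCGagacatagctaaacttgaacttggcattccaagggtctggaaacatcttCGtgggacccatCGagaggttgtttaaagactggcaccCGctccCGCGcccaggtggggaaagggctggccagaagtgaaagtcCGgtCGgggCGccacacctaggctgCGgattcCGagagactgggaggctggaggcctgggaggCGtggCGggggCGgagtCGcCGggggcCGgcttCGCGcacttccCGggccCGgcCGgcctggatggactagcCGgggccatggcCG

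**Figure D4:**
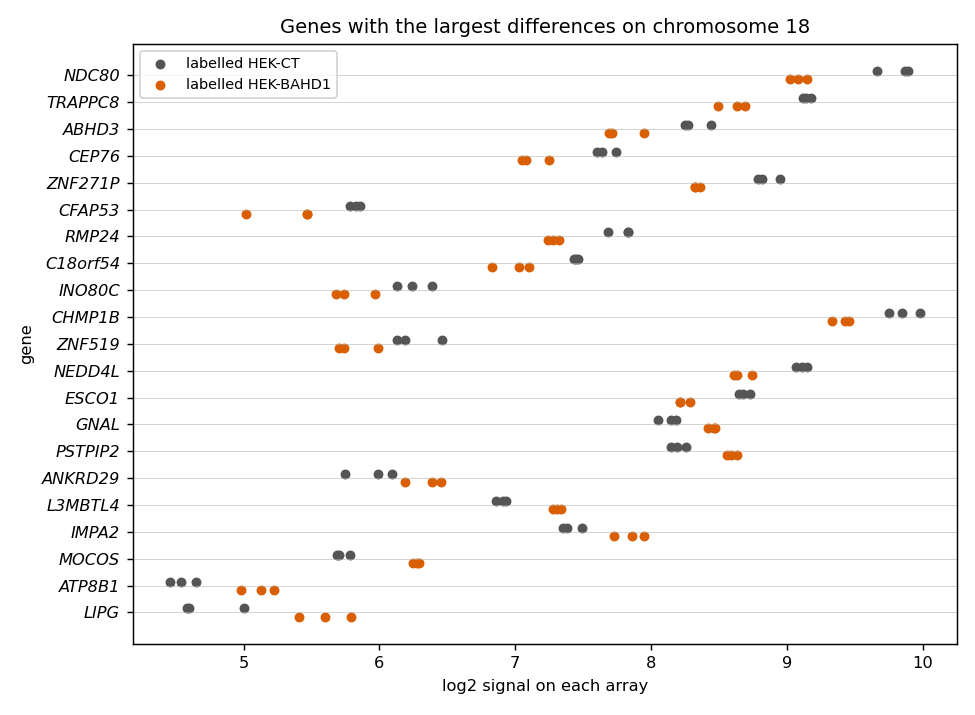
Log2 signal on each of the 6 arrays for the 13 genes with the largest lower and the 8 with the largest higher differences among called members. Each point is 1 array, grey for the label HEK-CT and orange for HEK-BAHD1. From NDC80 to ESCO1 all orange points lie left of the grey ones, and from GNAL to LIPG they lie right of them.

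Members were then read by function, in 16 lists of chromosome 18 genes. A gene with several probe sets entered a list by its brightest. The list medians stand beside a median of -0.103 for all members and of -0.193 for the brighter ones, of which 40.6% were called lower and 4.90% higher. The lists differ in how many of their genes were brighter and overlap in some genes.

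Genes of cell division and chromosome segregation had the lowest list median, -0.32 over 13 genes measured. All 13 had a lower mean, 12 were brighter, 9 were called lower and none higher. TYMS, thymidylate synthase, was at 11.43, 11.40 and 11.40 against 11.15, 11.14 and 11.19. MAPRE2, which binds microtubule ends, was at 10.06, 10.10 and 10.07 against 9.79, 9.73 and 9.74. CHMP1B and VPS4B, of the ESCRT machinery that cuts membranes at the end of division, were at 9.75, 9.98 and 9.85 against 9.43, 9.46 and 9.33 and at 9.64, 9.73 and 9.59 against 9.33, 9.40 and 9.33. Their differences were -0.25 for TYMS, -0.32 for MAPRE2, -0.45 for CHMP1B and -0.30 for VPS4B. The rest of the called genes were NDC80, CEP76, ESCO1, which acetylates cohesin, HAUS1 of the augmin complex at -0.44 and CEP192 of the centrosome at -0.41. SKA1, a kinetochore protein, was not called at -0.28, and KATNAL2, CTDP1 and CABLES1 lay between -0.14 and -0.06.

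Genes of chromatin and DNA methylation came next, with a median of -0.29 over 9 measured, 6 lower, 1 higher and 2 not called, and 8 were brighter. SMCHD1, which maintains silencing on the inactive X chromosome, was read by 2 probe sets. The brighter one was at 10.42, 10.43 and 10.47 against 10.11, 10.22 and 10.19, and the second at 10.08, 10.22 and 10.21 against 9.84, 9.93 and 9.73. Both were called lower, at -0.27 and -0.34, and the calls were kept under 1 and under 2 of the 6 omissions. SS18, a subunit of the BAF remodelling complex, was at 9.63, 9.52 and 9.53 against 9.11, 9.15 and 9.18, a difference of -0.41. MBD1, which binds methylated CpG and is a known partner of BAHD1, was at 9.48, 9.38 and 9.49 against 9.16, 9.12 and 9.13. CXXC1, which binds unmethylated CpG, was at -0.35, SETBP1 at -0.33 and ADNP2 at -0.29. The second methyl-CpG binding gene, MBD2, was at 9.39, 9.43 and 9.42 against 9.35, 9.37 and 9.35, a difference of -0.06 that was not called. The higher gene was L3MBTL4.

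Among 15 zinc finger genes 7 were called lower and none higher, with a median of -0.27, 13 had a lower mean, and 6 were brighter. ZNF24 was at 9.27, 9.41 and 9.26 against 9.10, 9.04 and 8.87, a difference of -0.31. ZNF271P, ZNF519, ZNF397, ZNF407, SALL3 and ZNF236 were the others, from -0.52 to -0.26. TSHZ1 at -0.30 and ZBTB14 at -0.14 were not called, and ZNF516 stood highest at 0.20. Among 7 other transcription factors, 2 were lower, with a median of -0.16. TAF4B, a TFIID subunit, was at 7.59, 7.57 and 7.51 against 7.18, 7.16 and 7.15, and GREB1L at 6.89, 7.22 and 7.26 against 6.71, 6.79 and 6.77. TCF4 and GATA6, a factor of endoderm and heart, were not called at -0.15 and -0.16, and their arrays overlapped between the labels.

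The SMAD genes relay signals of transforming growth factor beta from its receptors to the nucleus. In this list of 7 genes the median was -0.25, with 3 lower and none higher. SMAD4, the common partner of the receptor-regulated SMADs, was at 10.37, 10.43 and 10.38 against 10.15, 10.15 and 10.14, a difference of -0.25. SMAD7, the inhibitory member, was at 7.22, 7.33 and 7.23 against 7.03, 6.95 and 6.99, a difference of -0.27. NEDD4L, a ubiquitin ligase that acts on SMADs and on sodium channels, was at 9.15, 9.11 and 9.07 against 8.63, 8.74 and 8.61. SMAD2, a receptor-regulated member, had 2 probe sets that gave different calls. The brighter was at 9.47, 9.66 and 9.55 against 9.46, 9.42 and 9.46, a difference of -0.11 that was not called, and the other at 8.17, 8.16 and 8.12 against 7.96, 7.91 and 7.70, called at -0.29. PIAS2, a SUMO ligase, was at -0.26 and TGIF1, a repressor of SMAD targets, at -0.17, and neither was called.

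Of 14 genes of membrane traffic and the lysosome, 5 were lower and 1 higher, with a median of -0.18. PIK3C3, the lipid kinase that starts autophagosome formation, was at 9.39, 9.54 and 9.50 against 9.05, 9.21 and 9.04, a difference of -0.38. TRAPPC8, CHMP1B, VPS4B and ATP9B at -0.29 were the other lower genes. NPC1, the lysosomal cholesterol transporter, was at -0.17 and not called, and RAB31 had a higher value of 0.14 without a call. The higher gene was MYO5B, a myosin of recycling endosomes. Of 11 kinases and phosphatases 4 were lower and 1 higher, with a median of -0.20. ROCK1, an effector kinase of RhoA and the first gene of the long arm in this order, was at 8.52, 8.66 and 8.69 against 8.24, 8.38 and 8.04, a difference of -0.40. PTPN2, a tyrosine phosphatase, was at -0.36 and PPP4R1, a regulatory subunit of phosphatase 4, at -0.24, while the kinase YES1 was not called at -0.20.

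Of 10 ubiquitin and proteasome genes 4 were lower and none higher, with a median of -0.12. RNF138 was at 10.01, 9.96 and 9.92 against 9.74, 9.69 and 9.76, a difference of -0.23. PSMG2, a proteasome assembly factor, was also at -0.23 and SOCS6 at -0.29, while USP14, a deubiquitinase of the proteasome, was not called at -0.11. Of 10 genes of RNA processing and translation 2 were lower, MEX3C at -0.39 and ELAC1, a tRNA processing enzyme, at -0.34, and the median was -0.11. The genes NARS1, SNRPD1, SEH1L and TXNL4A lay between -0.15 and 0.02, ELP2 was at -0.19 and CELF4 at 0.04, and none of these was called. Outside the list and chosen after its value was seen, THOC1, a subunit of the THO complex of messenger RNA export, was called lower at 9.90, 9.97 and 9.92 against 9.57, 9.52 and 9.54. Of 8 actomyosin genes ROCK1 and MYL12A were lower and MYO5B higher, and MYL12B and SPIRE1 were not called at -0.12 and -0.07.

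Of 7 genes in the mitochondrial list none was called, 6 were brighter and 6 had a lower mean, with a median of -0.09. ATP5F1A, the alpha subunit of ATP synthase, was at 11.97 on all 3 arrays labelled HEK-CT and at 11.72, 11.79 and 11.82 on the others. Its arrays did not overlap, the difference was -0.19, and the medians of the labels differed by less than 0.2. AFG3L2, ACAA2 and NDUFV2 were at -0.15, -0.12 and -0.07. Outside the list and likewise chosen after its value was seen, TIMM21, which takes part in mitochondrial protein import, was called lower at 9.81, 9.91 and 9.85 against 9.42, 9.53 and 9.45.

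**Figure D5:**
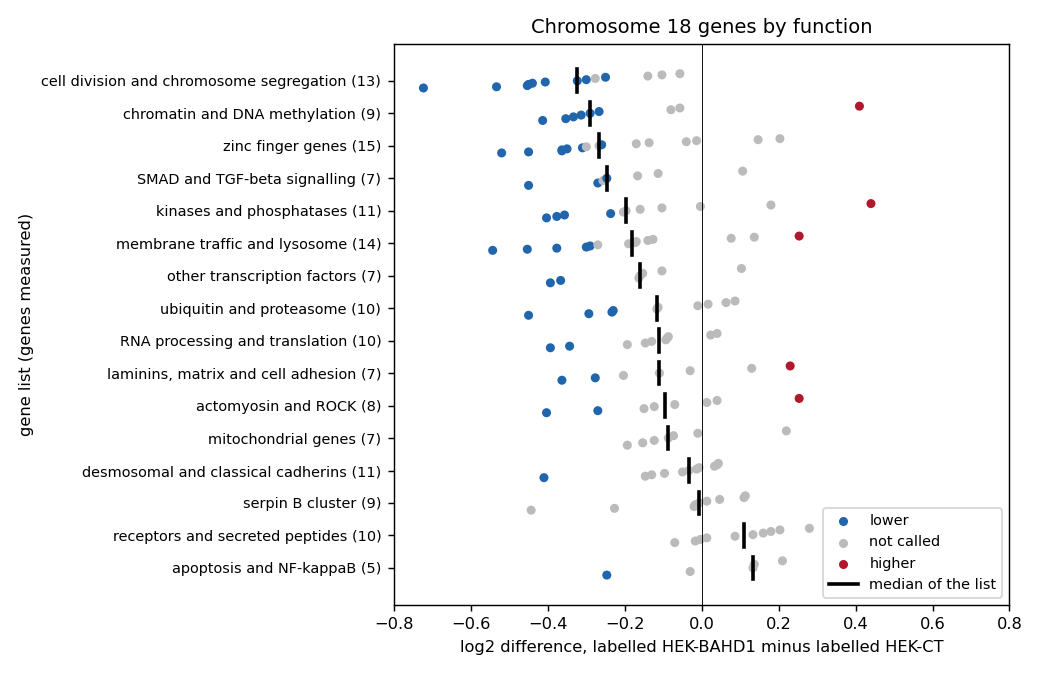
Log2 difference between the labels for the genes of 16 functional lists, with the number of genes measured in parentheses. Points are genes, blue where called lower, red where called higher and grey otherwise, and black bars are list medians, from -0.32 for cell division to 0.13 for apoptosis.

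The cadherins and the clade B serpins were mostly dim, and their list medians were near 0. Of 11 cadherin genes only DSC3, a desmosomal cadherin, was called, at 9.78, 9.90 and 9.79 against 9.44, 9.51 and 9.29, a difference of -0.41. Its neighbour in the desmosomal cluster, DSG2, was at 9.16, 9.21 and 9.19 against 9.27, 9.19 and 9.22, a difference of 0.04. CDH2, or N-cadherin, was at 10.19, 10.26 and 10.22 against 10.07, 10.04 and 10.12, a difference of -0.15 that was not called, and DSC2 at -0.13 was not called either. The list median was -0.03, and 4 of the genes were brighter. None of 9 clade B serpin genes was brighter and none was called, with a median of -0.01. SERPINB8 was at 5.33, 5.42 and 5.18 against 4.69, 5.14 and 4.77, a difference of -0.44 (SE 0.12) that did not pass. SERPINB5 was at -0.23, and SERPINB13 and SERPINB7 were at -0.01 and -0.02. Their mean signals were low, at 3.37, 3.66 and 3.18.

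Receptors and secreted peptides were also mostly dim, with 1 brighter gene of 10. None was called and 3 had a lower mean, with a median of 0.11. TNFRSF11A, the receptor RANK, was at 0.13, APCDD1, an inhibitor of Wnt signalling, at 0.20, MBP, the myelin basic protein, at 0.28 and GRP, gastrin-releasing peptide, at 0.01. Of 5 genes of apoptosis and NF-kappaB, MALT1, a paracaspase, was called lower at 7.96, 8.09 and 8.10 against 7.77, 7.82 and 7.82. BCL2, which protects cells from apoptosis, was at 7.06, 7.04 and 7.10 against 7.15, 7.28 and 7.18, a higher value of 0.14 without a call. The list median was 0.13. Of 7 genes of matrix and adhesion, EPB41L3 at -0.28 and CCBE1 at -0.36 were lower and COLEC12 at 0.23 higher. PTPRM at -0.20 and LAMA1, a laminin chain, at 0.13 were not called, and the median was -0.11.

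Of 12 genes with more than 1 probe set, none was called in opposite directions. Among the 15 long non-coding RNAs the median was -0.02, with ZNF407-AS1 called lower at -0.26 and AQP4-AS1 called higher at 0.27. ZNF407-AS1 is, by its name, antisense to ZNF407, which was called lower at -0.36. Among the 250 protein-coding probe sets the median was -0.11.

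The promoter windows of the members were compared for sequence. Of 258 genes, 223 had an entry in the RefSeq promoter table, and TRAPPC8 and ATP8B1 had none. The median number of CG in the 300 bases was 27 for members called lower (59 promoters), 32 for those called higher (9) and 25 for those not called (155). It was 29 for the brighter and 18 for the dimmer members, beside 14 over all 27305 promoters of the table. Among the brighter members alone, the order turned, with 27.5 for those called lower (52) and 30.5 for those not called (64). Brighter genes measured on other chromosomes had a median of 27. The called lower members thus had as many CG as brighter genes elsewhere, by the median.

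In these windows 6 motifs were searched on both strands. Over all promoters of the table, the GC box GGGCGG was in 44.6%, the CCAAT box CCAAT in 35.7%, the TATA box TATAAA in 12%, the E box CACGTG in 7.44%, the NRF1 core GCATGCGC in 3.27% and the cyclic AMP response element TGACGTCA in 1.98%. Brighter members were set beside brighter genes measured on other chromosomes, since the shares moved with signal. GGGCGG was in 72.1% of the promoters of brighter members and 72.7% of those of brighter genes elsewhere. CCAAT was in 32.8% and 38.0%, TATAAA in 3.28% and 5.07%, CACGTG in 9.02% and 11.0%, and GCATGCGC in 8.20% and 6.06%. TGACGTCA was in 10 of 122 promoters of brighter members, 8.20%, and in 3.68% of those of brighter genes elsewhere. Over members of any signal it was in 6.28%, and over all genes measured elsewhere in 2.60%. Of the brighter members called lower, 7 of 52 held it, and of those not called 3 of 64. None of these motifs contains another. In the windows printed above, TGACGTCA stands in NDC80 at base 225, counted from 1 at the 5′ end. GGGCGG or its complement stands 7 times in ABHD3 and once in MOCOS at base 223, and CCAAT stands in LIPG at base 149. These are matches of letters and not sites of binding.

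Chromosome 21 was the only single chromosome set beside chromosome 18. It was picked with earlier results of these arrays known, so it is no neutral reference. Its 103 brighter probe sets had a median difference of -0.193, the same to 3 digits as on chromosome 18, with 37 called lower and 5 higher. Over its 242 probe sets the median was -0.080. On all autosomes except chromosome 18, chromosome 21 included, the 9209 brighter probe sets had a median of -0.013 and array medians between -0.022 and 0.015, with 865 called lower and 835 higher. The difference between chromosomes was not tested. The array medians over all probe sets lay between 5.46 and 5.56.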

How the data were processed

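Total RNA of HEK-CT and HEK-BAHD1 cells, 3 arrays each, was measured on Affymetrix HuGene ST arrays. The deposited values are log2 signals, which the authors made from probe intensities with RMA (background correction, normalization and summarization). Its version and the genome build of the array annotation are not given in the sources used here. Probe sets were named through the platform annotation, and genes were placed and ordered by RefSeq on GRCh38. The number of arrays limits the precision.

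From these values, 21062 probe sets naming a gene were fitted with limma 3.58.1 in R 4.3.3 without pairing, and p-values were adjusted over all of them by Benjamini-Hochberg. Calls also required group medians to differ by more than 0.2. The study's LPE test was rewritten as an alternative. The fits were also run on simulated data with differences planted in brighter probe sets, larger than those of most members. Smaller differences were not tried there. Other alternatives were centring, a second quantile normalization, filters, a replicate block and leaving out each array.

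The members and lists were chosen with earlier results of these data known. Named were, of called members without overlap, the 12 lowest (13 with ties) and 8 highest differences, the 4 brightest genes of each list and BAHD1. Other genes, among them THOC1 and TIMM21 outside the lists, were picked after their values were seen. A planned comparison of protein pairs was not made here. SERPINB2, LAMA3, RBBP8, C18orf32, RNF125, RNF165 and DLGAP1 were on the lists but were not read by a probe set of 1 gene.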

Additional observations from a re-analysis of the deposited data

How the results depend on the processing

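Lower calls numbered 65 over the chromosome (18 short arm, 47 long arm) and higher calls 12 (4 and 8). Leaving out 1 array gave 27 to 47 lower calls, 6 to 14 on the short arm and 19 to 33 on the long arm, and 7 to 10 higher calls, 4 to 6 on the long arm. Over all tested probe sets, 1345 lower and 1430 higher calls became 581 to 937 and 806 to 938. The medians of the chromosome, of both arms and of the brighter members stayed below 0 in each of these 6 fits, with centring, with quantile normalization and without the dimmest probe sets. Centring the arrays moved the medians to -0.140 for the chromosome, -0.130 for the long arm and -0.230 for the brighter members, where the median of all tested probe sets became -0.033. Leaving out the dimmest 30% of probe sets gave -0.160 for the chromosome and -0.162 for the long arm. Testing all probe sets, named or not, left 30 lower calls on the long arm and 1033 over all of them.

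The replicate numbers did not pair the arrays, with correlations of deviations of -0.077, 0.074 and -0.038 for equal numbers. With the replicate block the lower calls were 38 (9 short arm, 29 long arm), of which 37 were among the 65, and the higher calls 7 (4 on the long arm). With the LPE test the calls were 68 lower and 11 higher. Over all tested probe sets the block gave 829 lower and 962 higher calls, and the LPE test 1560 and 1324. The cause of these changes was not tested. No measure of background was used here, so signal over background was not assessed for dim probe sets.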
